A study of Mus musculus with 3 samples.

Results

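Plasmacytoid dendritic cells (pDC) were examined by droplet single-cell RNA sequencing of cells sorted from the non-parenchymal fraction of mouse liver. Counts are UMIs (unique molecular identifiers, each standing for 1 captured transcript). The members were chosen by their raw UMIs of Siglech, Cox6a2, Klk1 and Ccr9, which had to sum to 10 or more, among barcodes in which 200 genes or more were detected and no more than 20% of UMIs were mitochondrial. By this rule 389 of 3230 kept barcodes were pDC, 12.0% of them (exact binomial 95% interval 10.9 to 13.2). The matrix held 4638 barcodes before filtering.

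All animals carried the LSL-Tomato/Ai14 allele, a silent red fluorescent reporter that Cre recombinase switches on. They had received a lipid nanoparticle termed 20a-LNP or a second termed 20mix-LNP, each with 0.3 mg/kg of Cre mRNA, or PBS, 3 h before the liver was taken. There was 1 library for each of these 3 treatments, and age, sex, the number of animals per library and the sorted populations are unknown here. The barcodes carry a suffix of 1, 2 or 3 for the library, but no label or header ties a suffix to a treatment. Values are therefore given by suffix, no effect of either nanoparticle is reported, and no statistical test was run. All intervals cover counting error only and hold no variation between animals, libraries or cells.

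Plasmacytoid dendritic cells are dendritic cells with the shape of a plasma cell. They sense viral RNA and DNA through receptors inside endosomes and are known for releasing large amounts of type I interferon. The transcription factor Tcf4 (E2-2) sets and holds their identity against that of conventional dendritic cells, in which its inhibitor Id2 is expressed. In the mouse they carry Siglech, an inhibitory lectin, and Bst2 on the surface, and they share part of a lymphoid gene programme with B cells.

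Tcf4 belongs to the E proteins, which bind short sites called E-boxes. Promoter windows from RefSeq (GRCm38.p6, the 250 bases before the start that RefSeq gives each gene, mouse chromosomes 7 and 9) are shown for the 3 genes of the rule whose windows held the E-box CAGGTG on either strand (CACCTG on the other). Capitals mark the match. Starts differ between annotations: in the GENCODE annotation Ccr9 begins upstream, at position 123678439, so its window lies within that longer gene, and Siglech begins at 55768178, a few bases before its window ends.
Siglech, chr7:55767934-55768183, + strand: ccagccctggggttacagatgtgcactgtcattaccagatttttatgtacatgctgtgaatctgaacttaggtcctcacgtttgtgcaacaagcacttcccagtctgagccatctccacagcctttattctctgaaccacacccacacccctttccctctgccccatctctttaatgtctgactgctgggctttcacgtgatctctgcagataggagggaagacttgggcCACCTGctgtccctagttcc
Klk1, chr7:44225110-44225359, + strand: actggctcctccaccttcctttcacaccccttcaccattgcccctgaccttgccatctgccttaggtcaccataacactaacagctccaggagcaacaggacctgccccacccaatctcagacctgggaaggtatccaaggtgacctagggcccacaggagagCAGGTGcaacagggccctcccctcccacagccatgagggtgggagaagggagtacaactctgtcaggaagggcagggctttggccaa
Ccr9, chr9:123766961-123767210, + strand: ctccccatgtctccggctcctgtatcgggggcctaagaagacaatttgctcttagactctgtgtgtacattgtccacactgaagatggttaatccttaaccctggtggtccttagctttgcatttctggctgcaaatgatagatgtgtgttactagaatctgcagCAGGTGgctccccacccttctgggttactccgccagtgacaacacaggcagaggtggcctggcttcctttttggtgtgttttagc
Cox6a2, the other gene of the rule, is named only, and the window of Runx2 held no match. CAGGTG was found in 8 of the 14 matched genes among the 20 that stood furthest above the other barcodes (57.1%), in 23.5% of the 408 matched genes among all 531 genes higher in pDC, and in 19.4% of all 27025 genes with a window. The related E-box CAGCTG, which reads the same on both strands, was found in 3 of the 14 (21.4%) and in 14.7% of all genes. Some genes have several windows, and a match is a description of letters and not of binding.

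The markers fit the label. Siglech was detected in 388 of 389 pDC (99.7%) and in 3.27% of the 2841 other kept barcodes, Ccr9, a chemokine receptor, in 97.4% and 2.01%, Cox6a2, a heart and skeletal muscle subunit of cytochrome c oxidase, in 83.3% and 0.915%, and Klk1, tissue kallikrein, in 73.5% and 0.141%. These 4 genes chose the members, so their values are a description. Runx2, a transcription factor that the rule did not use, was detected in 97.9% of pDC and 11.5% of the others. Just outside the gate, 14 kept barcodes held 5 to 9 UMIs of the 4 genes, with Siglech at 442, Tcf4 at 1102, Runx2 at 327, Bst2 at 1163 and Ly6d at 40.8 counts per 1000000 UMIs (CPM). Just inside, 30 barcodes held 10 to 14 UMIs, with Siglech at 1421, Tcf4 at 3405, Runx2 at 955, Bst2 at 1177 and Ly6d at 171 CPM. Of these 30, 23 had less than 10% of their UMIs from ribosomal protein genes, against 5 of the 14. The 30 had a median of 3927.5 UMIs and the 14 a median of 12746 UMIs. The part of depth in these levels was not tested.

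**Figure D1:**
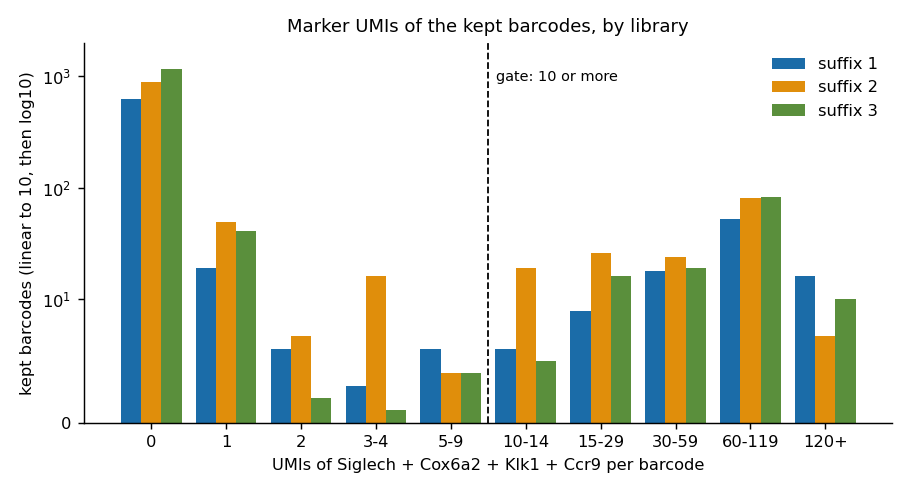
Number of kept barcodes (vertical axis, linear to 10 and logarithmic above) by the UMIs of the 4 rule genes per barcode (horizontal axis), for each library suffix. The dashed line is the gate at 10 UMIs, and 308 of the 389 barcodes to its right held 30 UMIs or more.

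The 3 libraries held 101, 156 and 132 pDC under suffixes 1, 2 and 3. That was 13.3% (10.9 to 15.9), 13.9% (12.0 to 16.1) and 9.78% (8.25 to 11.5) of the kept barcodes. The share under suffix 3 was lower than the other 2, with an interval that overlapped that of suffix 1 and not that of suffix 2. The same library held the most sinusoidal endothelial barcodes (32.3%, against 24.3% and 10.4% under suffixes 1 and 2), and its part in the share of pDC was not tested. The pDC had a median of 11477 UMIs (1839 to 22319) and 3154 genes, against 5319 UMIs and 2001 genes in the other barcodes, and a minimum on raw UMIs favours deep barcodes. The libraries held 6144949, 8754827 and 9211407 UMIs.

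Defining transcripts of Kupffer cells, neutrophils and B cells were near 0 in the gate, while those of other cell types reached higher levels. The summed level of 5 Kupffer cell markers was 0.888 to 6.52 CPM over the libraries, that of 5 neutrophil markers 0 to 4.44 CPM and that of 5 B cell markers 1.44 to 3.55 CPM, with Ms4a1 and Pax5 at 0. Sinusoidal endothelial markers (5) summed to 46.3 to 77.0 CPM and hepatocyte markers (7) to 13.7 to 53.5 CPM, and 5 erythroid markers to 11.7 to 21.6 CPM. Monocyte markers (5) summed to 1450 to 1856 CPM, nearly all of it Ly6c2 and Ccr2, which pDC also carry, and plasma cell markers (5) to 209 to 232 CPM, nearly all of it Mzb1. Conventional dendritic 2 markers (5) summed to 717 to 959 CPM, above the other barcodes at 278 to 318 CPM. Of these, Clec10a had a UMI in 89.2% of pDC, and Ccl17 was at 0. Conventional dendritic 1 markers (5) summed to 102 to 137 CPM, below the other barcodes at 172 to 258 CPM. Of these, Clec9a was at 75.8 CPM in pDC and 45.3 CPM in the others, Xcr1 was at 0.494 CPM in pDC and Gcsam at 0. NK or ILC1 markers (5) summed to 158, 113 and 5.04 CPM under suffixes 1, 2 and 3, and T cell markers (5) to 40.0, 18.3 and 2.88 CPM. Of the 389 barcodes, 7 also passed the gate of a cell type that is not dendritic (3, 3 and 1 by suffix), and Scrublet, a doublet caller, marked 4. Of 3 barcode sequences found under more than 1 suffix, 1 barcode was a pDC.

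The share of ribosomal protein transcripts split the gate. Ribosomal protein transcripts made up less than 10% of the UMIs in 87 pDC (22.4%), with few barcodes in between: 7 lay from 8 to 12%. These 87 had a median of 4155 UMIs and 16.5% mitochondrial UMIs, against 11984 UMIs and 5.94% in the other 302. They made up 13.9%, 27.6% and 22.7% of the pDC under suffixes 1, 2 and 3. Tcf4 was at 5156 CPM in them and 2020 CPM in the other pDC, Runx2 at 1306 and 617 CPM, and the nuclear RNA Malat1 at 81738 and 30904 CPM. Other genes stood the other way: Ly6d was at 452 CPM in the ribosomal-poor and 2446 CPM in the other pDC, Bst2 at 757 and 3751 CPM, and Fth1 (ferritin heavy chain) at 884 and 6703 CPM. Siglech was at 3685 and 3182 CPM and Irf8 at 4743 and 3439 CPM. Of the other kept barcodes, 1470 of 2841 were also below 10%. Such barcodes made up 93.2% of the sinusoidal endothelial gate, 70.3% of the Kupffer gate and 19.1% of the NK or ILC1 gate. Leaving them out therefore also changes the mix of cell types among the other barcodes. The part of this split in each level below was not tested, and results that turn without such barcodes are marked.

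**Figure D2:**
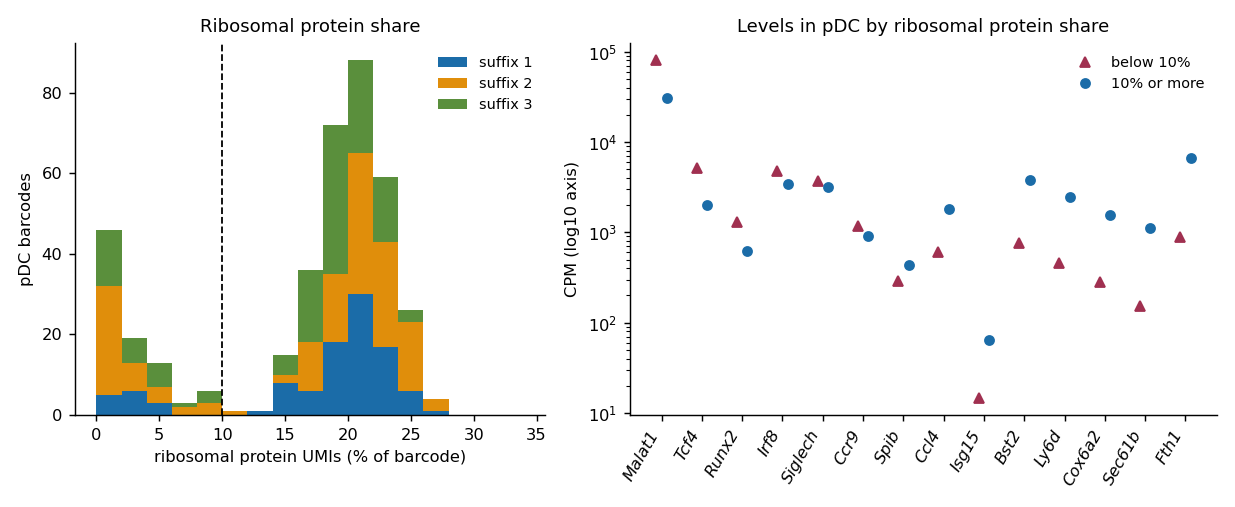
Left, number of pDC barcodes (vertical axis) by the percent of their UMIs from ribosomal protein genes (horizontal axis), stacked by library suffix, with the split at 10% dashed. Right, CPM (log axis) of 14 genes in the 87 pDC below 10% (triangles) and the 302 at 10% or more (circles): Malat1, Tcf4 and Runx2 lie higher below the split, and Bst2, Ly6d and Fth1 lower.

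Against all other kept barcodes, 531 of 4055 genes measured (13.1%) were higher in pDC and 901 (22.2%) were lower. A gene counted when the pooled levels differed at least 2-fold, the counting interval of the ratio left out 1, all 3 libraries had the same direction and the higher side reached 50 CPM. The median log2 ratio over the genes so measured was -0.0602. Counts of list members below are to be read beside these shares of all genes, or beside those against conventional dendritic cells given next. Against the 153 barcodes of conventional dendritic cell gates (cDC), the nearest cell types, 651 of 3406 genes (19.1%) were higher in pDC and 370 (10.9%) were lower. With TMM scaling, which sets libraries level by the bulk of their genes, 508 were higher and 498 lower than in cDC. With ribosomal-poor barcodes left out on both sides, 512 genes were lower than in the other barcodes, and 412 of them were among the 901.

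Tcf4, Irf8, Spib, Runx2, Bcl11a and Mef2c, transcription factors of the pDC programme, were higher than in the other barcodes. Of 13 on the list, 12 were measured at 50 CPM or more on either side, 6 of them higher and 1 lower than in the other barcodes, and 9 higher and 2 lower than in cDC. Their median log2 ratio over the other barcodes was 1.50. Tcf4 was at 2206, 2456 and 2317 CPM in pDC under suffixes 1, 2 and 3, and at 439, 282 and 523 CPM in the other barcodes. All 3 pDC values lay above all values of the others, a 5.59-fold ratio when pooled (5.42 to 5.77), and in cDC Tcf4 was at 153 CPM. Spib, an Ets factor shared with B cells, was at 454, 327 and 489 CPM in pDC, against 5.97 CPM in the other barcodes and 6.30 CPM in cDC. Runx2 had 679, 694 and 685 CPM in pDC, 34.9 CPM in the others and 42.8 CPM in cDC. Irf8, which conventional dendritic cells also need, was at 3572 CPM in pDC, 375 CPM in the others and 1160 CPM in cDC. Bcl11a was at 615 CPM in pDC and 44.6 CPM in the others, and Mef2c at 747 and 182 CPM. Spi1 (PU.1), a myeloid factor, was the list member that was lower, at 68.9 CPM in pDC, 219 CPM in the others and 507 CPM in cDC.

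Factors of the conventional dendritic and innate lymphoid fates were low. All 4 list members that reached the level were lower than in the other barcodes, and all 5 that reached it against cDC were lower there. Id2, an inhibitor of E proteins, was at 31.4 CPM in pDC, 725 CPM in the others and 1127 CPM in cDC. By library it stood at 40.9, 43.7 and 10.1 CPM in pDC, and the lowest value was in the library with the fewest NK or ILC1 transcripts in the gate; the part of those transcripts was not tested. Zbtb46, a factor of conventional dendritic cells, was at 2.22 CPM in pDC, 64.2 CPM in the others and 51.7 CPM in cDC. Klf4 was at 36.3 CPM in pDC, 99.4 CPM in the others and 160 CPM in cDC, and Relb, an NF-kB subunit, at 19.5, 72.4 and 59.2 CPM.

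Of 21 listed surface molecules, none of them in the rule, 19 were higher than in the other barcodes and 1 was lower, with a median log2 ratio of 3.86, and 20 were higher than in cDC. Bst2 (tetherin, the PDCA-1 antigen) stood at 3318, 3484 and 3508 CPM in pDC and 298 CPM in the others. Ly6d, an antigen of early lymphoid cells, was at 2205, 2083 and 2451 CPM in pDC, 17.4 CPM in the others and 0.420 CPM in cDC, where 1 UMI was counted. The groups do not overlap for either gene. Pacsin1, a membrane-bending protein best known from neurons, was at 276 CPM in pDC and 4.12 CPM in the others. Havcr1 (TIM-1) was at 102 and 0.358 CPM, Cd209d at 615 and 12.6 CPM, Cd300c at 382 and 6.87 CPM, Lair1, an inhibitory collagen receptor, at 709 and 53.1 CPM, and Lag3 at 184 and 25.7 CPM. Nrp1, which marks pDC in humans, was the 1 that was lower, at 98.8 CPM in pDC and 397 CPM in the others. That order turned to a ratio of 1.46 without ribosomal-poor barcodes, which made up 93.2% of the sinusoidal endothelial gate.

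Transcripts of T cell coreceptors were read in pDC. Of the 5 T cell markers, Cd3e was at 0, Cd3d had 2 UMIs, Trac 12, Cd5 15 and Cd3g 48 UMIs, those of Cd3g in 5 of 389 barcodes. Cd4 was at 168, 130 and 126 CPM in pDC, 2.57 CPM in the others and 0.420 CPM in cDC, and Cd8b1 at 155, 140 and 211 CPM in pDC, 8.78 CPM in the others and 0 in cDC. Cd4 had a UMI in 51.4% of pDC and Cd8b1 in 39.6%. In the NK or ILC1 gate, which should lack both, these shares were 0.987% and 0, at median depths of 11477 UMIs in pDC and 6434 UMIs in that gate. After thinning each barcode to 2000 UMIs they were 21.5% and 18.7% in pDC and 0.361% and 0 in NK or ILC1 barcodes. Cd8a, the partner chain of Cd8b1, was at 76.8 CPM in pDC, and the correlation of Cd8a and Cd8b1 across 386 pDC was 0.050. That correlation and the others given below describe thinned log counts of barcodes that share libraries and depth.

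**Figure D3:**
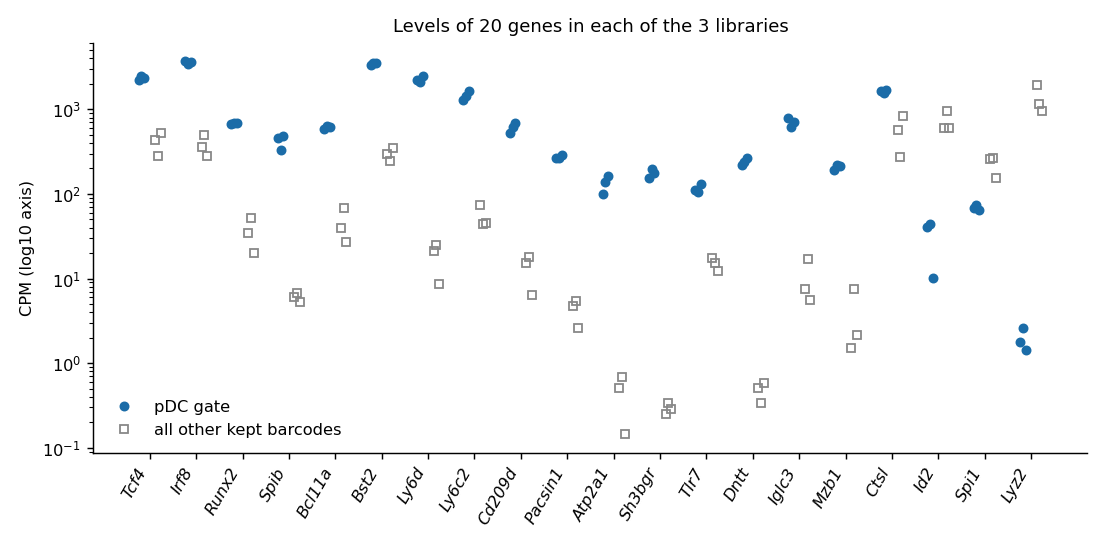
CPM (log axis) of 20 genes in each of the 3 libraries, with pDC as filled circles and all other kept barcodes as open squares. The first 17 genes lie above the other barcodes in every library, Tcf4 at 2206 to 2456 CPM in pDC, and Id2, Spi1 and Lyz2 lie below.

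Some genes best known from muscle were higher in pDC, and they were picked after their values were seen. Atp2a1, the calcium pump of fast skeletal muscle, was at 99.5, 138 and 163 CPM in pDC and 0.418 CPM in the other barcodes. Pgam2, muscle phosphoglycerate mutase, was at 77.3, 67.8 and 84.2 CPM and 0.179 CPM, and Sh3bgr, a small protein named for heart and muscle expression, at 155, 199 and 177 CPM and 0.299 CPM. The pooled ratios over the other barcodes, in that order, were 325 (157 to 812), 425 (144 to 2071) and 600 (256 to 1853). Atp2a1 had a UMI in 245 of 389 pDC and Sh3bgr in 263, but Pgam2 in 79, with 84.1% of its UMIs in 39 barcodes. Cox7a1 and Cox8b are also muscle forms: Cox7a1 had a UMI in 3 pDC and Cox8b in 0. Among forms found in other tissues, Cox6a1 was at 239 CPM in pDC and 234 CPM in the others, and Pgam1 was at 78.1 and 94.0 CPM. The muscle counterpart of Cox6a1, Cox6a2, was at 1423 and 1.91 CPM. But it is a gene of the rule, so the gate favoured that difference and its values are a description. Atp2a2 was at 45.7 and 85.2 CPM, and Atp2a3 was at 96.1 CPM in pDC, 40.2 CPM in the others and 14.3 CPM in cDC. Klk1b27, a kallikrein nearly identical in sequence to others of its cluster so that its reads may be shared with Klk1, was at 247 and 0.239 CPM.

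The lymphoid programme was uneven. Of 7 listed genes measured at the level, 4 were higher than in the other barcodes and 2 lower, and all 5 measured against cDC were higher. Over all genes 13.1% were higher and 22.2% lower than in the other barcodes, and 19.1% were higher than in cDC. Dntt, the terminal transferase of immature lymphocytes, was at 221, 238 and 267 CPM in pDC, 0.478 CPM in the others and 0 in cDC (at least 193-fold higher, with 3 counts set for the zero). It had a UMI in 72.0% of pDC and 0.987% of NK or ILC1 barcodes. Iglc3, an immunoglobulin lambda constant gene, was at 794, 620 and 716 CPM in pDC, 10.1 CPM in the others and 0 in cDC, and Ighm at 1078, 130 and 171 CPM in pDC, the others and cDC. Iglc3 had a UMI in 323 of 389 pDC. Igkc was unlike it, with a UMI in 114 pDC and 78.2% of its UMIs in 39 barcodes. The recombinase gene Rag1 was at 0.988 CPM (4 UMIs), and Cd79a, part of the B cell receptor, at 0.494 CPM, while its partner Cd79b was at 57.6 CPM in pDC and 24.5 CPM in the others. Trbc1 and Trbc2, the T cell receptor beta constants, were lower, at 10.6 and 3.21 CPM in pDC and 213 and 174 CPM in the others.

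The machinery of endosomal sensing was present. Of 11 listed genes at the level, 6 were higher and 2 lower than in the other barcodes, with a median log2 ratio of 1.12. The sum over the list was 2737 CPM in pDC, 1643 CPM in the others and 1727 CPM in cDC. It was higher in Kupffer barcodes, at 5588 CPM, and lower in sinusoidal endothelial (1367 CPM) and NK or ILC1 barcodes (1131 CPM). Tlr7, the receptor for single-stranded RNA, was at 110, 106 and 131 CPM in pDC, 14.6 CPM in the others and 2.94 CPM in cDC. Tlr9, the receptor for unmethylated DNA, was sparse at 10.9 CPM in pDC and 1.13 CPM in the others. Unc93b1, which carries both to endosomes, was at 672 CPM in pDC, 187 CPM in the others and 407 CPM in cDC, and Slc15a4, an endolysosomal transporter needed for their signal, at 142, 30.4 and 39.5 CPM. Irf7, the factor that drives interferon genes, was at 160, 222 and 261 CPM in pDC under suffixes 1, 2 and 3 and 93.3 CPM in the others. Of 8 cytosolic sensing genes at the level, 0 were higher and 2 lower, where 13.1% and 22.2% of all genes were. The 2 were Ddx58 (RIG-I) at 1.73 CPM in pDC and 66.6 CPM in the others and Zbp1 at 13.1 and 50.9 CPM.

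Interferon transcripts themselves were hardly read. Over 20 type I and type III interferon genes, 1 UMI of 4048616 was counted in pDC (Ifnk, under suffix 2), and 0 of 16747497 in the other barcodes. A count of 0 allows up to 0.741 CPM for one gene in pDC and 0.179 CPM in the others. Il12a, a cytokine subunit, was at 9.14 CPM in pDC.

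Interferon-stimulated genes, which cells switch on when an interferon signal reaches them, were more often below than above the other barcodes. Of 16 listed genes at the level, 2 were higher and 8 lower, where 13.1% and 22.2% of all genes were, with a median log2 ratio of -1.12. The sum over the list was 1797 CPM in pDC, 2880 CPM in the others and 3166 CPM in cDC. It was 4347 CPM in Kupffer, 3425 CPM in sinusoidal endothelial and 1166 CPM in NK or ILC1 barcodes. Ifi27l2a was at 667 CPM in pDC and 270 CPM in the others, and Mx1, an antiviral GTPase, at 51.6 and 22.0 CPM. Ifitm3 was at 35.8 CPM in pDC and 817 CPM in the others, and Rtp4 at 0.247 and 66.5 CPM. Stat2, part of the factor that reads the interferon signal, was at 153, 160 and 152 CPM in pDC and 78.0 CPM in the others.

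The libraries differed in these genes. Over all genes, 39 of 3270 (1.19%) differed at least 2-fold between the highest and lowest library with counting intervals apart, and 18 of them (0.550% of those measured) were lowest under suffix 1. On the interferon-stimulated list 6 members were among the 39 (Isg15, Mx1, Usp18, Ifi44, Ifi203 and Ifitm3). Of its 12 members at 20 CPM or more in pDC, 11 were lowest under suffix 1, against 37.3% of all 5689 genes at that level. Isg15, a ubiquitin-like modifier, stood at 11.5, 73.7 and 83.5 CPM in pDC and at 79.1, 131 and 114 CPM in the other barcodes of the same libraries. Mx1 stood at 17.8, 65.9 and 63.3 CPM in pDC and 13.8, 31.9 and 18.2 CPM in the others. Usp18, which removes Isg15 from proteins, was at 16.9, 56.1 and 51.8 CPM in pDC and 17.8, 27.5 and 27.7 CPM in the others. Ifi44 was at 21.3, 71.7 and 65.5 CPM in pDC, and in the others it was highest under suffix 3 (52.0, 39.3 and 80.5 CPM). In pDC suffix 1 was the low library for each of these 4 genes, and suffixes 2 and 3 lay close together. Ifitm3 was at 17.8, 63.9 and 19.4 CPM in pDC, high under suffix 2 alone. Outside the list, Slfn5, which interferon also induces, was at 11.5, 78.2 and 81.3 CPM in pDC and 232, 193 and 317 CPM in the others.

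Few pDC carried these transcripts. Isg15 had a UMI in 73 of 389 pDC, and the 39 barcodes with the most held 86.0% of its UMIs; for Mx1 these values were 102 barcodes and 69.9%. At 2000 UMIs per barcode Isg15 was seen in 0, 5.88 and 8.33% of pDC under suffixes 1, 2 and 3 and Mx1 in 2.97, 9.80 and 8.33%. Across 386 pDC the correlation of Isg15 with Mx1 was 0.35, and with Usp18 0.34. Isg15 was lower in ribosomal-poor pDC (14.6 CPM, against 64.9 CPM in the other pDC), and these were least frequent under suffix 1. With ribosomal-poor barcodes left out it stood at 12.3, 80.4 and 93.2 CPM. The treatment behind each suffix is not known here, and a library, an animal and a treatment cannot be told apart. The window before the Isg15 gene holds 3 overlapping matches of a pattern of interferon-response elements, GAAA, then any 2 bases, then GAAA. Capitals mark the run of matches.
Isg15, chr4:156200819-156201068, - strand: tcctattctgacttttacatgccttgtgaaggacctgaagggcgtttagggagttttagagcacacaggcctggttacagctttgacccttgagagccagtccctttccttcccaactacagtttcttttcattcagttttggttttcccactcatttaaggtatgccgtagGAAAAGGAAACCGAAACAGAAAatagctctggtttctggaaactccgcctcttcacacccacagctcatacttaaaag
The pattern was found on either strand in 10 of 19 matched genes of the list (52.6%) and in 3.46% of all genes. Mx1 and Usp18 are named only.

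**Figure D4:**
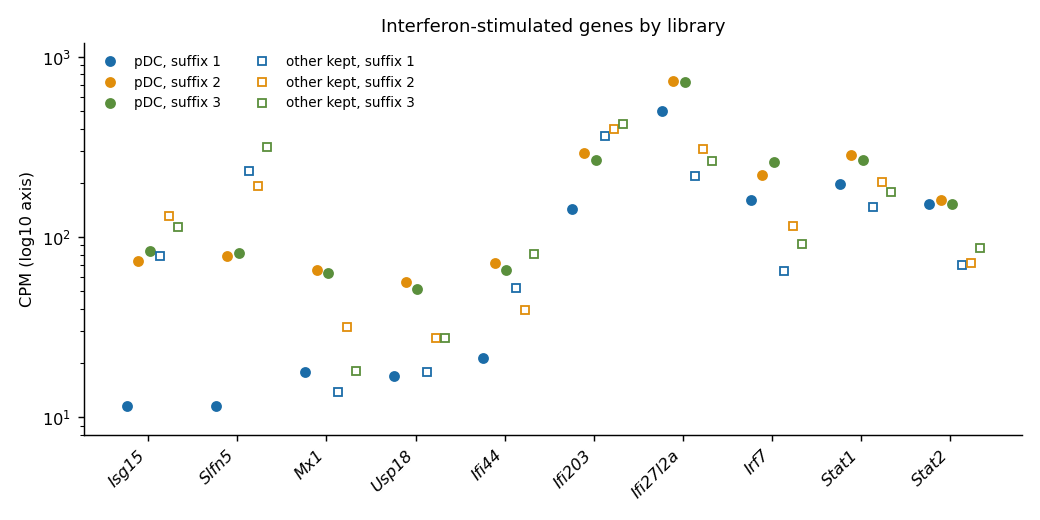
CPM (log axis) of 10 genes induced by or reading interferon, with pDC as filled circles and other kept barcodes as open squares, coloured by library suffix. In pDC, suffix 1 lies lowest for Isg15 (11.5 CPM), Slfn5, Mx1, Usp18, Ifi44 and Ifi203, while Stat2 lies level.

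Other genes differed between libraries as well. Ccl5, a chemokine of cytotoxic lymphocytes, was at 141, 276 and 4.32 CPM in pDC under suffixes 1, 2 and 3, Gzma (granzyme A) at 139, 78.9 and 2.16 CPM and Xcl1 at 11.5, 136 and 2.88 CPM. Ccl5 had a UMI in 24 of 389 pDC, Gzma in 18 and Xcl1 in 10. For Gzma, 95.4% of the UMIs came from 5 barcodes. In NK or ILC1 barcodes Gzma had a UMI in 79.9%. An alternative left out the 7 pDC that also passed the gate of a cell type that is not dendritic. There Ccl5 stood at 2.75, 6.74 and 4.37 CPM, Gzma at 4.58, 4.04 and 2.18 CPM and Xcl1 at 1.83, 1.35 and 2.91 CPM. The ratio of suffix 2 over suffix 3 for Xcl1 was then 0.463. Fam46c, a poly(A) polymerase, was lowest under suffix 2 (65.7, 22.2 and 93.6 CPM), and Klf4 lowest under suffix 3 (56.0, 44.3 and 11.5 CPM). Ms4a6c, a membrane protein of myeloid cells, was lowest under suffix 1 (14.2, 56.7 and 22.3 CPM).

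Ccl4, a chemokine that attracts lymphocytes and monocytes, was the most uneven transcript after the noncoding RNAs Gm42418 and Malat1 when genes were ordered by the lowest variance over mean of the 3 libraries. It was at 1824, 1301 and 1982 CPM in pDC, against 528, 408 and 344 CPM in the other barcodes and 86.5 CPM in cDC when pooled. Only 164 of 389 pDC had a UMI of it, 1 barcode held 483, and the 39 highest barcodes held 82.5% of all. After thinning to 2000 UMIs its variance over barcodes was 26.7, 21.4 and 21.1 times its mean, where counting error alone gives about 1. Genes with a ratio of 2 or more in every library numbered 69 of 2946 at 50 CPM or more (2.34%), or 70 at any level, of which 8 were mitochondrial and 14 ribosomal protein genes. Without ribosomal-poor barcodes 32 such genes were found, 31 of them among the 70, and a separate random thinning gave 27. Ccl4 moved with Plaur, the urokinase receptor (r = 0.55 over 386 barcodes, 0.54 over the 301 with ribosomal transcripts), and less with its neighbour gene Ccl3 (0.39) and with Rgs1 (0.39). At 2000 UMIs per barcode it was seen in 31.3% of pDC and 54.2% of NK or ILC1 barcodes.

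Heat shock genes Hspa1a and Hspa1b, which are nearly identical in their coding sequence, had r = 0.61. Hspa1a and Jun, an immediate early gene, had r = 0.31. MHC class II genes H2-Aa and Cd74 had r = 0.75, and 0.72 without ribosomal-poor barcodes, and H2-Aa and H2-Ab1 had r = 0.68. Lgals3 and Vim, transcripts of myeloid and mesenchymal cells, had r = 0.47. Klk1 was among the uneven genes, with a variance over mean of 3.65 to 4.49, a UMI in 286 barcodes and at most 106 in 1. Malat1 and Fth1 had r = -0.68 over all 386 barcodes and 0.028 over the 301, and the cause of that change was not tested. Ly6d and Ly6c2 had r = 0.40, and 0.20 over the 301.

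Among the listed cytokines and chemokines Ccl4 was the 1 of 10 at the level that was higher than in the other barcodes, and 6 were lower. Over all genes 13.1% were higher and 22.2% lower. Cxcl9 was at 0.247 CPM in pDC, 213 CPM in the others and 514 CPM in cDC, and Il1b at 0.494, 277 and 254 CPM. Of the 12 homing genes at the level outside the rule, 4 were higher and 2 lower, to be read beside the same shares. Selplg, an adhesion ligand of leukocytes, was at 764 CPM in pDC and 274 CPM in the others. S1pr1, a receptor for leaving tissue, was at 0.494 CPM in pDC and 104 CPM in the others, and its relative S1pr4 at 54.8 and 18.3 CPM.

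Receptors for growth factors and cytokines were mixed, with 6 of 12 higher and 4 lower, where 13.1% and 22.2% of all genes were. Flt3, the receptor for the growth factor of dendritic cells, was at 152 CPM in pDC, 46.9 CPM in the others and 213 CPM in cDC. Il7r, better known from lymphocytes, was at 182, 31.1 and 8.40 CPM, and Tnfrsf13b (TACI) at 265, 21.5 and 55.0 CPM. Both chains of the type I interferon receptor were higher than in the others, Ifnar1 at 203 and 81.6 CPM and Ifnar2 at 309 and 112 CPM. Csf1r, the macrophage growth factor receptor, was at 1.73 CPM in pDC and 197 CPM in the others. The list as a sum had a ratio of 0.933, which turned to 1.01 without suffix 3 and 1.38 without ribosomal-poor barcodes. Adaptors of the receptors that restrain pDC were high: Tyrobp (DAP12), the partner of Siglech, was at 4122 CPM in pDC, 1154 CPM in the others and 1092 CPM in cDC, Blnk at 231, 6.99 and 2.10 CPM and Syk at 179, 80.0 and 63.8 CPM. Of the 10 listed receptor genes at the level, the rule gene left out, 6 were higher and 0 lower.

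Antigen presentation set pDC below conventional dendritic cells. Of 13 listed MHC class II genes at the level, 11 were lower than in cDC and 0 higher, where 10.9% and 19.1% of all genes were. H2-Aa was at 2021, 1682 and 2039 CPM in pDC and 8230 CPM in cDC, Cd74, the invariant chain, at 4407, 4000 and 4888 CPM and 16209 CPM, and Ciita, the transactivator of the set, at 43.2 and 286 CPM. Against all other barcodes 1 of 9 was higher and 1 lower, where 13.1% and 22.2% of all genes were. The sum of the list had a ratio of 0.869, which turned to 1.12 without suffix 2 and also after thinning to 2000 UMIs. Genes used to describe a transitional or AXL-positive dendritic cell were low: of 12 at the level, 10 were lower than in the other barcodes, Axl at 1.23 CPM in pDC and 63.7 CPM in the others and Lyz2 at 1.98 and 1257 CPM. Clec10a, which is used as a marker of conventional dendritic 2 cells, was at 493 CPM in pDC, 19.4 CPM in the others and 117 CPM in cDC, and Cd209a at 234, 59.5 and 370 CPM. Through these genes 237 pDC also passed the conventional dendritic 2 gate. The conventional dendritic 1 gate was passed by 10 pDC. All pDC were left out of cDC for every comparison here. Xcr1 and Ccl17 were lower than in cDC as well, but they define the cDC gates.

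Of 26 listed genes of transport into and folding in the endoplasmic reticulum, 9 were higher than in the other barcodes and 0 lower, and 6 were higher than in cDC. Over all genes 13.1% were higher and 22.2% lower than in the other barcodes, and 19.1% were higher than in cDC. Sec61b, a subunit of the translocation channel, was at 1015 CPM in pDC, 273 CPM in the others and 623 CPM in cDC, and Manf, a stress-induced secreted chaperone, at 385, 102 and 135 CPM. Mzb1, a chaperone of B and plasma cells, was at 190, 222 and 212 CPM in pDC, 3.88 CPM in the others and 0 in cDC. Xbp1, the factor that drives secretory expansion, was at 393, 335 and 459 CPM in pDC and 99.4 CPM in the others, and Txndc5 at 188 and 47.6 CPM. Jchain and Tnfrsf17, genes of plasma cells, had 1 UMI each in pDC. Sec61b and Mzb1 were lower in ribosomal-poor pDC, at 151 and 24.3 CPM, against 1113 and 231 CPM in the other pDC.

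Lysosomal genes split by member. Of 19 at the level, 10 were higher and 4 lower than in the other barcodes, where 13.1% and 22.2% of all genes were. The sum over the list was 13226 CPM in pDC, 6210 CPM in the others and 5929 CPM in cDC. It was higher in Kupffer barcodes, at 21551 CPM, and lower in sinusoidal endothelial (8062 CPM) and NK or ILC1 barcodes (1598 CPM). Ctsl, an endosomal protease, was at 1624, 1561 and 1676 CPM in pDC, 576 CPM in the others and 15.5 CPM in cDC. Ctsh was at 1173, 193 and 458 CPM, Ctsb at 1970, 820 and 232 CPM and Grn (progranulin) at 1038, 288 and 208 CPM. Ctsd was lower than in the others but higher than in cDC, at 142, 394 and 23.5 CPM. Lamp2 (169 and 435 CPM in pDC and the others) and Tpp1 (49.4 and 122 CPM) were also lower. Both turned without ribosomal-poor barcodes, to ratios of 1.29 and 1.21. Those barcodes made up 70.3% of the Kupffer gate and 93.2% of the sinusoidal endothelial gate, and the cause was not tested. Of 12 cholesterol synthesis genes at the level, 11 were higher than in the other barcodes and 5 higher than in cDC. Over all genes these shares were 13.1% and 19.1%. Over 16 members at 20 CPM or more in pDC, 12 were lowest under suffix 2, against 32.5% of all genes. Idi1 was at 85.3, 73.0 and 131 CPM in pDC and 20.8 CPM in the others, and Dhcr7 at 54.6 and 9.37 CPM. Of 10 genes of cholesterol export and oxysterols at the level, 0 were higher and 6 lower than in the other barcodes. Against cDC, 0 of 7 were higher and 1 lower, where 19.1% and 10.9% of all genes were. The sum over all 16 listed was 528 CPM in pDC, 3523 CPM in the other barcodes, 832 CPM in cDC, 591 CPM in NK or ILC1 barcodes, 4522 CPM in sinusoidal endothelial barcodes and 17193 CPM in Kupffer barcodes. Abca1 was at 2.47 CPM in pDC and 74.5 CPM in the others, and Apoe at 102 and 2564 CPM.

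Of 16 endocytosis genes at the level, 0 were higher and 4 lower than in the other barcodes. Over all genes 13.1% were higher and 22.2% lower. Against cDC, 0 of 13 were higher and 0 lower, where 19.1% and 10.9% of all genes were. Clta (clathrin light chain) was at 347, 381 and 364 CPM in pDC and 344 CPM in the others, Cltc (heavy chain) at 136 and 263 CPM and Dab2, a clathrin adaptor, at 0.988 and 174 CPM. Lrp8, a lipoprotein receptor, was at 134, 121 and 157 CPM in pDC, 1.97 CPM in the others and 0.420 CPM in cDC, while Lrp1 was at 3.70 and 68.8 CPM and Cd36 at 8.40 and 305 CPM in pDC and the others. Of 4 cell cycle genes at the level 0 were higher and 1 lower, and the sum over all 18 had a ratio of 0.512 over the other barcodes (0.600, 0.585 and 0.408 by suffix) and 0.429 over cDC. Of 11 glycolysis genes 1 was higher and 1 lower. Ldhb was the glycolysis gene that was higher, at 130 CPM in pDC, 17.0 CPM in the others and 1.68 CPM in cDC, and Hk2 the one that was lower, at 12.1 CPM in pDC and 60.5 CPM in the others. Of 7 lipoprotein receptor genes, 1 was higher (Lrp8) and 3 lower. Of 11 isoforms of oxidative phosphorylation genes outside the rule and of 10 heat shock genes, 0 were higher and 0 lower. Of 16 immediate early genes, 2 were higher and 6 lower, Ier5 at 549 CPM in pDC and 244 CPM in the others and Junb at 157 and 698 CPM.

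**Figure D5:**
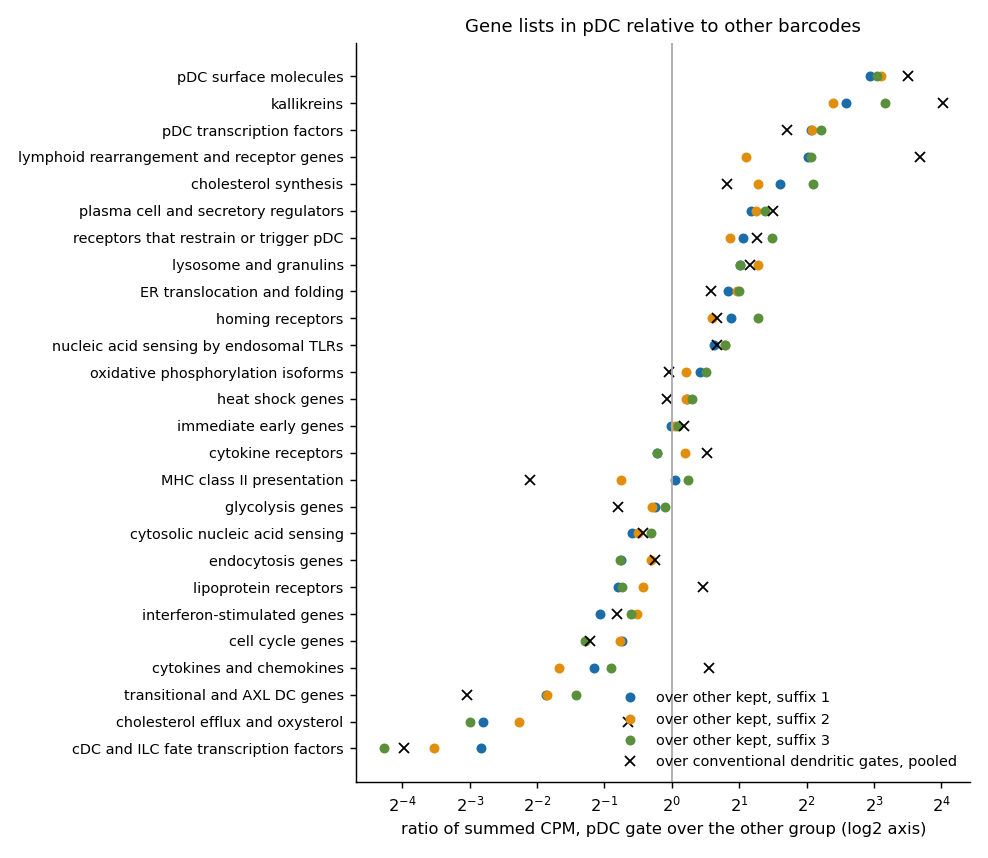
Ratio of summed CPM in pDC (log axis) for 26 gene lists without the genes of the rule, over all other kept barcodes of the same library (coloured by suffix) and over cDC (crosses, pooled). Surface molecules and transcription factors of pDC lie right of 1 in every library, and MHC class II presentation lies far left of 1 against cDC but on both sides of 1 against the other barcodes.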

How the data were processed

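The deposited matrix holds UMI counts, whole numbers with no sign of scaling, for 31053 genes and 4638 barcodes. Per the file headers it was written by Cell Ranger, software version 3.1.0. Per the submitters' processing notes the build was mm10 and Cell Ranger, STAR, Seurat and edgeR were used, with no roles given. The gate, cDC gates (5 UMIs of conventional dendritic 1 or 2 markers, pDC left out) and other gates use raw UMIs. UMIs were summed per gate and suffix with Python 3.11.15, numpy 2.4.6, scipy 1.17.1 and pandas 2.3.3 and divided by the sum (CPM). Exact Poisson intervals belong to levels, exact conditional binomial intervals to ratios and Clopper-Pearson intervals to shares, all at 95%. The limit for a count of 0 is 3 counts. Medians of log2 ratios set counts under 0.5 to 0.5. Genes of the rule were left out of the counts of genes higher or lower in pDC and of list sums. They were kept in the counts of genes that differed between libraries and of uneven genes, where Klk1, Cox6a2 and Ccr9 were among the 70. Correlations are Pearson's r of log(count + 1) after thinning to 2000 UMIs, centred within each library. Doublets (Scrublet in scanpy 1.11.5, per library) were kept, and removed in an alternative; edgeR 4.0.16 (R 4.3.3) gave TMM scaling, also an alternative.

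Named genes are the genes of the rule with Runx2, the 20 highest and 10 lowest against the other barcodes and the 10 highest and 5 lowest against cDC by interval bound, up to 4 leading and all differing members of each list, and the 10 widest between libraries and between barcodes; others named (markers of other cell types, the forms Atp2a2, Atp2a3, Cox6a1, Cox7a1, Cox8b and Pgam1, and Tlr9, Il12a, Rag1, Cd79a, Ciita, Ccl3, Plaur, Rgs1, Lgals3, Vim, Hspa1b, Usp18, Ifi44 and Fth1) were added after their values were seen. The members and lists were chosen with earlier results of these data known. The calls were tested on simulated sums with known changes. Those sums held counting error only, so they cannot show how the calls fare with variation between barcodes or libraries. Ratios per library, thinning and gate changes were tried as alternatives. Some homing genes are not reported here.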

Additional observations from a re-analysis of the deposited data

Results flagged for a closer look

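The filter on mitochondrial and gene content removed 218 barcodes that held 10 or more UMIs of the 4 rule genes (57, 111 and 50 under suffixes 1, 2 and 3). They lie outside the comparisons above, and they carried pDC transcripts well above the level in the other removed barcodes, which is why they are listed. Tcf4 was at 7667 CPM of non-mitochondrial UMIs in them, against 1444 CPM in the other removed barcodes and 2512 CPM in the 389 pDC. Runx2 was at 1843 CPM, against 232 and 738 CPM, and Irf8 at 7221 CPM, against 1249 and 3836 CPM. Ly6d was at 230 CPM and Bst2 at 419 CPM in them, below the pDC at 2409 and 3702 CPM. Their median mitochondrial share was 26.2% and their median ribosomal protein share 0.804%. The 4 rule genes chose these barcodes, so their levels are a description. Siglech and Ccr9 were at 5795 and 1927 CPM in them, against 3473 and 1008 CPM in the 389 pDC. Cox6a2 and Klk1 were at 105 and 103 CPM in them, below the pDC at 1529 and 1210 CPM.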

How the results depend on the processing

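The share of 12.0% pDC became 10.4% with a gate of 20 UMIs, 13.7% with 500 genes and 10% mitochondrial UMIs, and 11.0 to 13.7% without each library. The 39 genes that differed between libraries became 13 to 25 without each library, 67 with mitochondrial, ribosomal protein, haemoglobin and hepatocyte genes out of the denominator, 86 after thinning to 2000 UMIs (16 of them among the 39), and 134 and 10 with a level of 20 and 100 CPM in place of 50. With 20 CPM, 1688 genes were lower than in the other barcodes, and 1135 higher and 652 lower than in cDC; with 100 CPM these were 448, 362 and 199, and 347 were higher than in the other barcodes. With TMM scaling 585 genes were higher and 805 lower than in the other barcodes, and 508 higher and 498 lower than in cDC. Uneven genes numbered 37 with the gate of 20 UMIs, 29 with the strict filter and 22 at 1000 UMIs.

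An alternative chosen after seeing the data kept only barcodes with 10% or more ribosomal protein UMIs. It left out 93.2% of the sinusoidal endothelial gate and 70.3% of the Kupffer gate, so the other barcodes also changed in cell type. With it the share of pDC was 18.1%, 512 genes were lower than in the other barcodes and 27 genes were uneven. There the list ratios of cytokine receptors, immediate early genes and heat shock genes turned to 1.38, 0.967 and 0.972, and those of Nrp1, Lamp2 and Tpp1 to 1.46, 1.29 and 1.21. Thinning turned immediate early genes to 0.933 and MHC class II presentation to 1.12, and without each library the list ratios ran from 0.727 to 1.12 for MHC class II presentation (1.12 without suffix 2) and from 0.852 to 1.01 for cytokine receptors (1.01 without suffix 3). Xcl1, suffix 2 over suffix 3, turned to 0.463 without the 7 pDC that also passed the gate of a cell type that is not dendritic. The causes were not tested. A cDC gate without Clec10a and a run without shared barcode sequences, also chosen after seeing the data, kept every count within 1.5 times.

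No paired analysis was possible because each treatment has 1 library and no suffix is tied to a treatment. Depth limits what can be said of genes near 0: in pDC, 1 library allows up to 2.66 CPM for a count of 0.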
